A study of Schizosaccharomyces pombe with 2 samples.

Results

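The splicing factor genes of *S. pombe* were followed on arrays of asynchronously growing wt and *sgo2*Δ cells. Members were the genes whose platform symbol is prp, cwf, lsm, smd, saf or syf followed by a number, together with *cdc5*, *cdc28*, *smb1*, *sme1*, *smf1*, *smg1*, *usp101*, *usp102*, *usp103*, *spp42*, *brr2*, *srp1*, *srp2*, *dsk1* and *bpb1*. This gave 71 genes, each with 1 probe set of its own, out of 2899 nuclear genes that had one. The symbols *uaf1* and *uaf2* were also looked for, and no probe set named either. A further 32 probe sets carry such a name in capitals, as budding yeast genes do, and all 32 are listed at 0 on both arrays.

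The wt culture was strain JK107 and the mutant culture strain JP2247, in which *sgo2*, the gene of the shugoshin paralogue Sgo2, is deleted. Both were of the *h-* mating type and were grown exponentially in the rich medium YES at 32 °C. Each strain has 1 array, and what else differs between the strains is not given in the sources used here. The comparison asks which transcripts differ when Sgo2, a centromeric protein that also sits at the subtelomeres in interphase, is missing. A single array per strain leaves every difference without replication, so no test was made and precision is limited by the number of arrays. RNA came from whole cultures, so less transcript in every cell and the same transcript in fewer cells cannot be told apart.

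Splicing removes introns from pre-mRNA in successive transesterification steps carried out by the spliceosome, which is assembled on each intron from the U1, U2, U4, U5 and U6 small nuclear ribonucleoproteins (snRNPs) and many further proteins. The U1 snRNP binds the 5′ splice site, the branch site is bound first by a bridging protein and then by the U2 snRNP, and the U4/U6 and U5 snRNPs join before RNA helicases remodel the complex into its active form. Fission yeast carries introns in a large share of its genes, and several of the genes below were found as conditional mutants in pre-mRNA processing (prp), as cell cycle mutants (*cdc5* and *cdc28*) or by purification of proteins bound to Cdc5 (cwf).

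As a check of the labels, the *sgo2* signal fell from 581.5 in wt to 2.81 in the deletion. That is at least 5.82-fold lower if the dim array is set to 100, the signal that the brighter array of a gene had to reach. The median signal of probe sets of named genes was 1352 in wt and 1522 in *sgo2*Δ. Over the 2796 genes with a signal of at least 100 on 1 array or more, log2 ratios (*sgo2*Δ over wt) had a median of 0.13 and an interquartile range from 0.05 to 0.22. A ratio is therefore given both as deposited and relative to this median. Of markers of the *h-* type, 7 of 9 were measured, with signals from 55.6 to 2834 in wt (sum 4908) and from 42.4 to 3580 in *sgo2*Δ (sum 5872), and 5 and 6 of them reached 100. Of 6 markers of the opposite type, 3 were measured, with signals from 70.6 to 271.9 in wt (sum 468.2) and from 83.6 to 314.8 in *sgo2*Δ (sum 517.0). On each array 2 of these 3 reached 100. The most intense of the first list, *mam4*, had signals of 2834 and 3580. The dimmest of that list were *mfm1* (55.6 in wt and 42.4 in *sgo2*Δ) and *mfm3* (84.3 and 113.6). Signals of different probe sets are not on a common scale of transcript number. The ranges, sums and rankings of signal here therefore describe array signal only and do not compare transcript levels between genes or lists.

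None of the splicing factor genes changed 2-fold between the strains. All 71 reached a signal of 100 on at least 1 array and 70 of 71 on both. Of the 71, 0 were at least 2-fold higher and 0 were at least 2-fold lower in *sgo2*Δ cells. Over all genes, 0.536% were called higher and 0.0358% lower by this rule. The median log2 ratio of the members was 0.13, which stood 0.0043 above that of all genes. Its 95% order-statistic interval across genes was 0.10 to 0.16. That interval concerns the median only and treats genes as independent draws, which genes on 1 array per strain are not. It carries no variation between arrays or cultures, so it gives no confidence about the effect of the deletion. Of the members, 36 lay above the median of all genes and 35 below it. The interquartile range was 0.14 wide for the members and 0.17 for all genes.

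**Figure D1:**
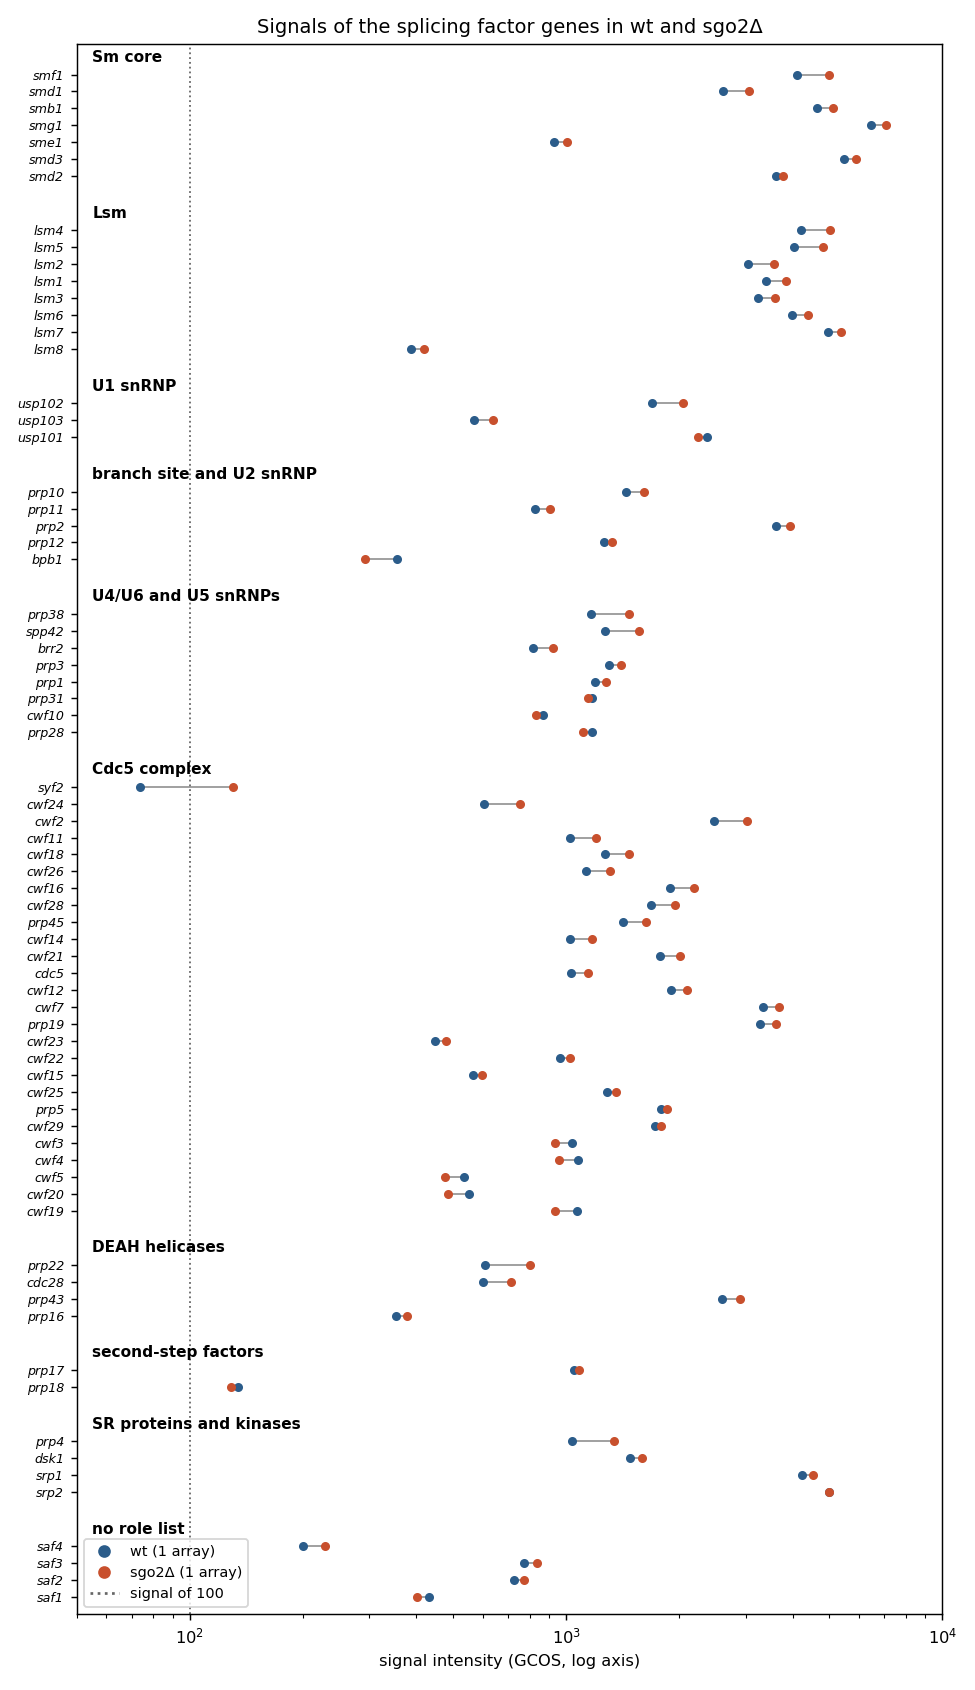
Signal intensity of each of the 71 splicing factor genes in wt (blue) and *sgo2*Δ (orange), on a log axis, grouped by role and ordered by log2 ratio within a group. Each point is 1 array; the points of a gene lie close together except for *syf2* (73.7 and 130.2), and the dotted line marks a signal of 100.

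With a finer threshold, a log2 ratio of at least 0.32 in size, 5 members were higher (7.04%) and 0 were lower, while 6.51% of all genes were higher and 0.572% lower. The 5 were *syf2*, *prp22*, *prp4*, *prp38* and *cwf24*. Of these, *cwf24* lay on the threshold at 0.32, and the next gene under it was *spp42* at 0.30. *syf2* (73.7 in wt and 130.2 in *sgo2*Δ) reached the required signal on the *sgo2*Δ array only, so the rule admitted it through its higher array. Without *syf2*, 4 of 70 members were higher. With a signal of at least 200 required, 4 of 69 were. The share of members is near that of all genes. Log2 ratios below 0 were found for 12 of 71 members (16.9%) and for 15.3% of all genes. Counts at the finer threshold followed the scaling. Relative to the median of all genes, 1 member was higher (*syf2*) and 1 lower (*bpb1*), beside 1.82% and 2.07% of all genes. After quantile normalization 1 was higher (*syf2*) and 6 were lower (*bpb1*, *cwf4*, *cwf5*, *cwf19*, *cwf20* and *prp18*), beside 1.11% and 4.22% of all genes.

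**Figure D2:**
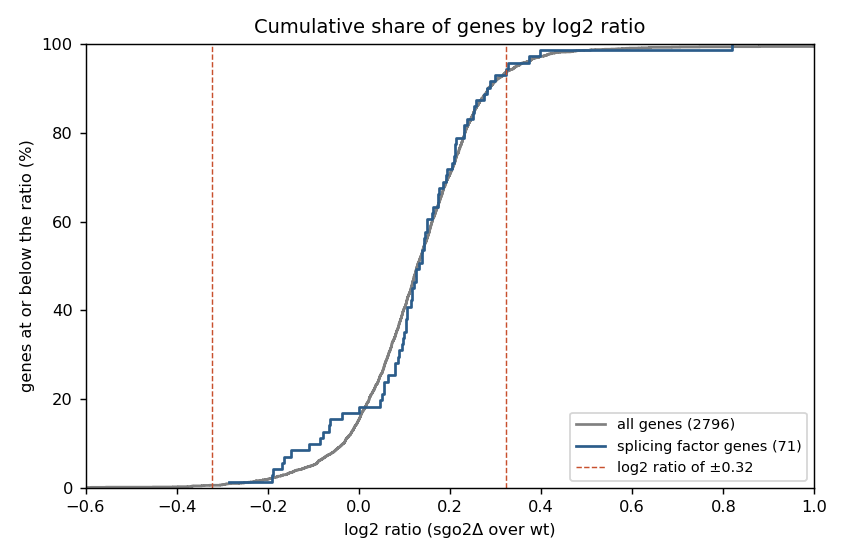
Percent of genes at or below each log2 ratio of *sgo2*Δ over wt, for the 71 splicing factor genes (blue) and all 2796 genes (grey), with dashed lines at log2 ratios of -0.32 and 0.32. The curves reach their midpoints close to 0.13, and 66 of the 71 members lie between the lines.

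Since dim genes scatter more, each member was also set against the 200 other genes nearest in mean signal, and called outside where its log2 ratio lay beyond their 5th to 95th percentile. By this rule, 6 members lay above and 6 below (8.45% each), against 5.4% and 5.58% of all genes. Those above were *syf2*, *prp22*, *prp4*, *smf1*, *lsm4* and *lsm5*. Those below were *bpb1*, *cwf19*, *cwf4*, *cwf3*, *prp28* and *usp101*. *syf2* is counted above although its wt signal (73.7) lay under the signal required of the brighter array, so that call is not firm. The median difference from genes of like signal was -0.0017 on the log2 scale, with 35 members above and 36 below. These 12 genes are the ones described most fully below.

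**Figure D3:**
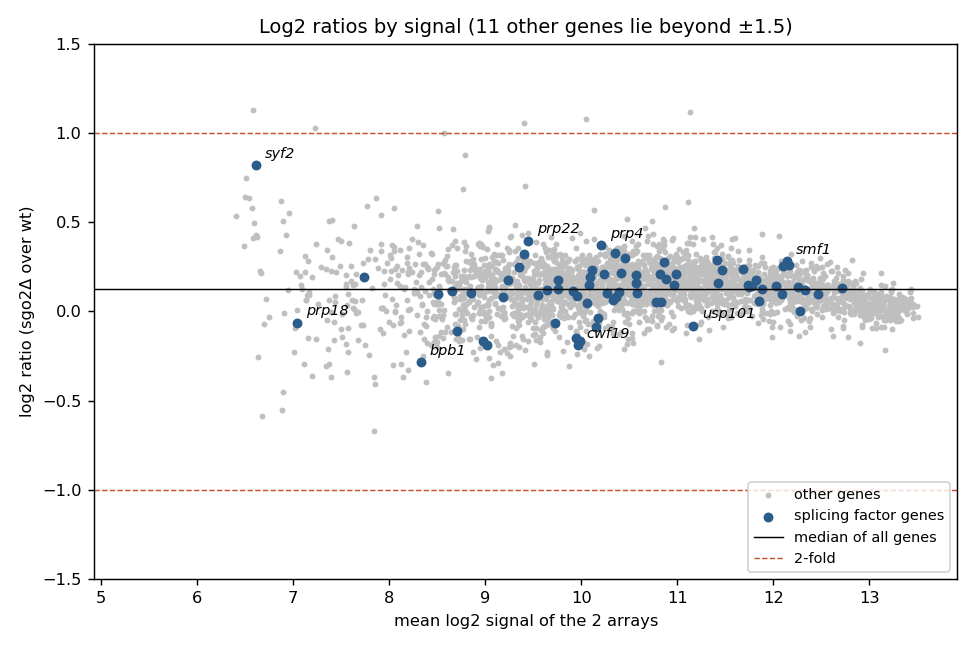
Log2 ratio of *sgo2*Δ over wt against mean log2 signal for each gene that reached a signal of 100; splicing factor genes are blue, other genes grey, and 11 other genes lie outside the plot. The blue points follow the grey band around its median of 0.13 (black line), all between the dashed 2-fold lines.

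The Sm proteins form a ring of 7 subunits around the U1, U2, U4 and U5 RNAs, and all 7 of their genes were measured. Their median log2 ratio was 0.13, with a range from 0.06 (*smd2*) to 0.28 (*smf1*). The gene of SmF, *smf1*, stood at 4108 in wt and 4994 in the mutant, a log2 ratio of 0.28, which is 0.15 above the median of all genes. Genes of like signal were bounded at 0.24. Its ring partners *smd1* (2604 and 3055), *smb1* (4653 and 5121) and *smg1* (6447 and 7067) had log2 ratios of 0.23, 0.14 and 0.13. The remaining ratios were 0.12 for *sme1* (927.8 and 1005), 0.10 for *smd3* (5482 and 5873) and 0.06 for *smd2* (3618 and 3762). The subunits of 1 ring thus differed by up to 0.23 on this scale, and none of them reached a log2 ratio of 0.32.

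The related Lsm proteins form a ring of Lsm2 to Lsm8 on the U6 RNA in the nucleus, while Lsm1 to Lsm7 act in messenger RNA decay in the cytoplasm. All 8 genes were measured, with a median log2 ratio of 0.16 and a range from 0.11 to 0.26. The signals of *lsm4* were 4199 and 5020.0 in wt and mutant, and its log2 ratio of 0.26 lay above the bound of 0.24 for genes of like signal. Those of *lsm5* were 4032 and 4801, and its log2 ratio of 0.252 passed its bound of 0.245 narrowly. *lsm2* followed at 0.24 (3033 and 3573). The subunits that set the rings apart, *lsm1* (3406 and 3845) and *lsm8* (386.6 and 418.6), had log2 ratios of 0.17 and 0.11. Between these fell *lsm3* (0.15), *lsm6* (0.14) and *lsm7* (0.12, with signals of 4952 and 5385).

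The log2 ratios of the 15 Sm and Lsm genes were all above 0 as deposited, but only 10 of 15 were above 0 after centring on all genes and 8 of 15 after quantile normalization. Their median relative to all genes was 0.01.

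In the U1 snRNP, 3 members encode U1-specific proteins, 1 with a log2 ratio below 0 and 2 above it. The genes *usp104* to *usp109*, which the naming rule does not take in, are counted with the further genes below. Their log2 ratios ran from -0.05 (*usp108*) to 0.26 (*usp109*). *usp101*, which encodes the U1 70K protein, stood at 2361 in wt and 2234 in the mutant (log2 ratio -0.08), under the lower bound of 0.0041 for genes of like signal. *usp102*, the gene of the U1 protein A, had signals of 1688 and 2042 (0.27), and *usp103*, that of the U1 protein C, 568.2 and 640.8 (0.17). Relative to the median of all genes the ratios were -0.21, 0.15 and 0.05.

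The lowest log2 ratio of all members was that of *bpb1*, which encodes the branch point bridging protein, the counterpart of human SF1. It had 354.8 in wt and 291.1 in the mutant, a log2 ratio of -0.29, or -0.41 relative to all genes. Genes of like signal ran from -0.18 to 0.40 between their 5th and 95th percentiles, so *bpb1* lay outside them. Its log2 ratio ranged from -0.22 with a pseudocount to -0.50 with quantile normalization. A pseudocount cannot turn a sign and the centrings lowered this ratio, so its staying below 0 is no measure of stability. By contrast *prp2*, which encodes the large subunit of U2AF, the partner of the bridging protein at the 3′ end of the intron, had signals of 3611 and 3939 (0.13). The U2 snRNP genes *prp10* and *prp12*, counterparts of the human SF3b genes SF3B1 and SF3B3, had log2 ratios of 0.16 (1438 and 1609) and 0.06 (1263 and 1321). The DEAD-box helicase gene *prp11* stood at 0.13 (828.0 and 903.7).

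Genes of the U4/U6 and U5 snRNPs and of their joining to the spliceosome had a median log2 ratio of 0.11 (8 genes) and fell on both sides of the median of all genes, 3 above and 5 below. On the higher side, *prp38*, the gene of a protein that joins with the tri-snRNP, had signals of 1167 and 1465 (0.33) and *spp42*, which encodes the U5 protein known as Prp8 in budding yeast, the scaffold of the active site, had 1268 and 1559 (0.30). Both lay within the range of genes of like signal. The U5 helicase gene *brr2*, whose product unwinds U4 from U6, was at 0.18 (814.6 and 920.0). On the lower side, the U5 GTPase gene *cwf10* had signals of 868.9 and 830.5 (-0.07), the U4/U6 protein gene *prp31* 1169 and 1140 (-0.04), and *prp28*, the gene of a DEAD-box helicase that displaces U1, 1172 and 1105 (-0.08). Of these only *prp28* lay under the lower bound for genes of like signal, at -0.085 against -0.080. Between them, *prp1* and *prp3* stood at 0.10 and 0.11. The 3 large U5 proteins encoded by *spp42*, *brr2* and *cwf10* thus had log2 ratios of 0.30, 0.18 and -0.07.

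**Figure D4:**
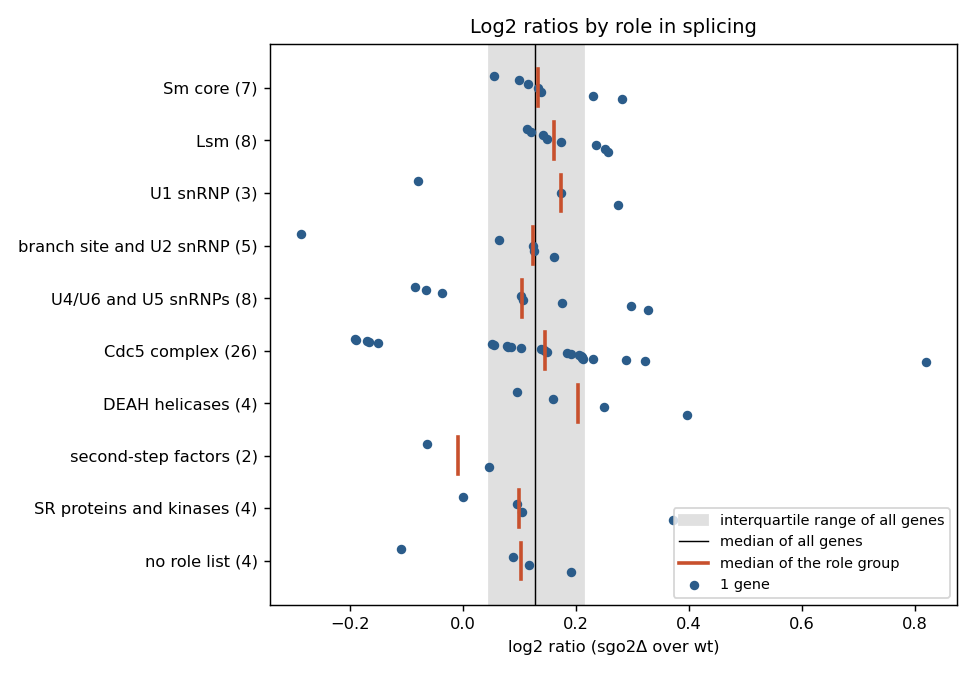
Log2 ratio of *sgo2*Δ over wt for each splicing factor gene (blue points) by role, with the number of genes in brackets and the group median in orange. The black line and grey band give the median (0.13) and the interquartile range (0.05 to 0.22) of all genes. In the Cdc5 complex group 5 of 26 genes lie below 0, where 15.3% of all genes do.

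The Cdc5 complex, known in budding yeast as the Prp19 complex, joins the spliceosome at its activation and holds the U6 RNA in the active conformation. The role group named for it was the largest, with 26 genes and a median log2 ratio of 0.14. This group takes in cwf genes, named for purification with Cdc5, so not every product need be a subunit of the complex. *cdc5*, the gene of the Myb-like subunit, had signals of 1030.2 and 1143 (0.15), and *prp19*, that of the U-box ubiquitin ligase, 3273 and 3603 (0.14). *cwf7* stood at 0.14 (3333 and 3682), and the WD-repeat gene *prp5* at 0.05 (1787 and 1856). Log2 ratios below 0, from -0.15 to -0.19, were found for 5 of the 26 genes, beside 15.3% of all genes. Among these 5 were *cwf3* (1038 in wt and 935.8 in *sgo2*Δ) and *cwf4* (1073 and 957.0), which encode the HAT-repeat scaffold proteins known in budding yeast as Syf1 and Clf1, at -0.15 and -0.17. *cwf19* had signals of 1067 and 935.5 (-0.19). All 3 lay under the lower bounds for genes of like signal, which were -0.11 for each. *cwf5*, which encodes an RNA-binding protein (535.6 and 476.6), and *cwf20* (552.6 and 484.9), at -0.17 and -0.19, lay within the wider bounds of dimmer genes, -0.19 and -0.21. Relative to all genes these 5 ratios ran from -0.28 to -0.32.

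The gene of the Cdc5 complex group with the largest log2 ratio, also the largest of all members, was *syf2*. It had 73.7 in wt and 130.2 in the mutant, a log2 ratio of 0.82. Its wt signal lay under 100, and against a signal of 100 it was at least 1.30-fold higher. Genes of like signal spread widely, from -0.34 to 0.64, and with a pseudocount of 100 or quantile normalization its log2 ratio was 0.41 or 0.42. Without *syf2* the largest log2 ratio of a member was 0.40. Next in the group came *cwf24*, the gene of a RING finger protein (604.5 and 755.7, 0.32), and *cwf2*, which encodes an RNA-binding protein (2478 and 3026, 0.29). The helicase-like gene *cwf11*, the counterpart of human Aquarius, stood at 0.23 (1023 and 1201), and *prp45*, that of human SKIP, at 0.21 (1415 and 1631). The remaining genes of the group (*cwf12*, *cwf14*, *cwf15*, *cwf16*, *cwf18*, *cwf21*, *cwf22*, *cwf23*, *cwf25*, *cwf26*, *cwf28* and *cwf29*) ran from 0.05 (*cwf29*) to 0.21 (*cwf18*).

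DEAH-box helicases drive the steps from activation to release of the mRNA and the lariat. All 4 had log2 ratios above 0 as deposited, with a median of 0.20. The largest was that of *prp22*, which encodes the helicase that releases the spliced mRNA, at 609.3 in wt and 802.6 in the mutant (1.32-fold, log2 ratio 0.40), above the upper bound of 0.32 for genes of like signal. *cdc28*, the counterpart of budding yeast Prp2, which activates the spliceosome before the first step, had signals of 600.4 and 713.8 (0.25). *prp43*, whose product takes the spent complex apart, had 2597 and 2900.5 (0.16), and *prp16*, which acts before the second step, 352.5 and 376.6 (0.10). Relative to all genes, 3 of the 4 were above 0, and after quantile normalization 2 of the 4 were.

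The second-step factor genes *prp17* (1048 and 1083) and *prp18* (134.4 and 128.7) had log2 ratios of 0.05 and -0.06, both below the median of all genes. The signals of *prp18* lay near 100 on both arrays, where the log2 ratio moved to -0.44 with quantile normalization.

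Among SR proteins, which bind exonic sequence and help define splice sites, and the kinases that phosphorylate them, *prp4* stood out. This gene of a kinase whose target in fission yeast is the U5 protein Prp1 stood at 1037 in wt and 1342 in the mutant (1.29-fold, log2 ratio 0.37), above the upper bound of 0.32 for genes of like signal. The gene of its target, *prp1*, had signals of 1190 and 1279 (0.10). The SR protein kinase gene *dsk1* stood at 0.11 (1477 and 1589), the SR protein gene *srp1* at 0.10 (4227 and 4518), and *srp2* at 0.00085 (4980 and 4983). Relative to all genes *srp2* was at -0.13, and 3 of these 4 genes were below 0.

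Named as splicing associated factors, *saf1* (433.1 and 401.7), *saf2* (724.7 and 770.9), *saf3* (770.1 and 835.5) and *saf4* (199.6 and 228.0) had log2 ratios of -0.11, 0.09, 0.12 and 0.19. Their median was 0.10, and none lay outside the range of genes of like signal.

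**Figure D5:**
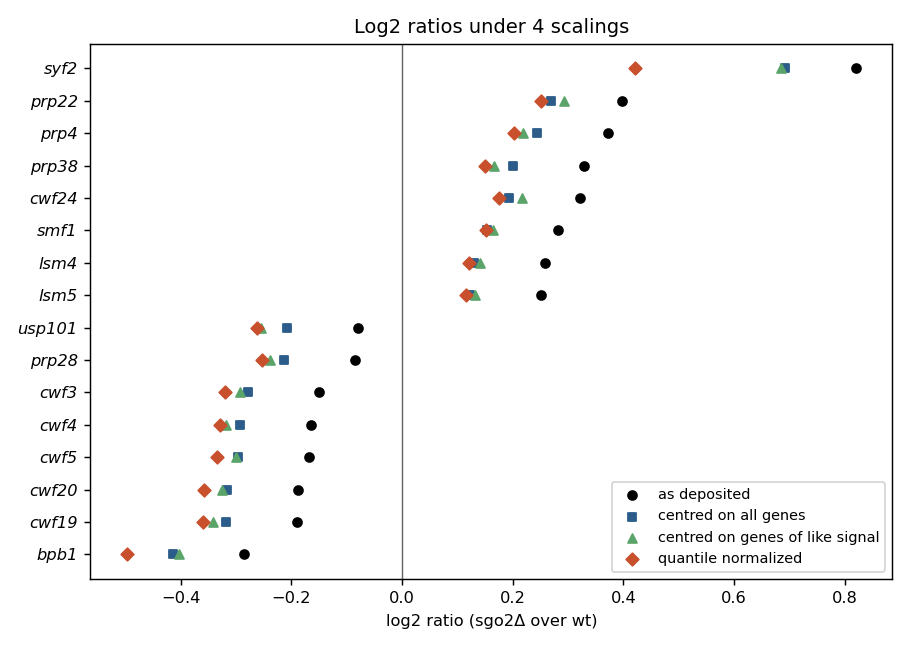
Log2 ratio of *sgo2*Δ over wt for 16 splicing factor genes, as deposited (black circles), centred on the median of all genes (blue squares), centred on genes of like signal (green triangles) and after quantile normalization (orange diamonds). The scalings shift the genes to the left, and the sign of each of these 16 genes stays as deposited, with *syf2* between 0.42 and 0.82 and *bpb1* between -0.50 and -0.29.

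Centring on all genes takes 0.13 from every gene, so by construction it turned the sign of the 23 of 71 members with log2 ratios between 0 and that shift. Centring on genes of like signal turned 24 of 71, the highest of them *prp43*, at 0.16 as deposited. Quantile normalization turned or brought to 0 the log2 ratios of 32 of 71, as high as that of *saf4*, which went from 0.19 to -0.085. No log2 ratio below 0 as deposited rose above it under these 3 scalings. The genes called outside the range of genes of like signal kept their sign under the scalings plotted for them. For centring on genes of like signal this follows from the rule that picked them. Centring on all genes lowers every log2 ratio, so it could not turn those below 0. The kept signs are therefore no measure of stability.

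Further genes listed for splicing, which the naming rule does not take in, were counted in the same way. Not all of them encode proteins of the spliceosome. Of 56 symbols listed, 33 matched a measured gene that is no member. Their median log2 ratio was 0.15, or 0.03 relative to all genes, with 21 of 33 above the median of all genes. None changed 2-fold, 4 of 33 passed a log2 ratio of 0.32 upward, where 6.51% of all genes did, and 0 passed it downward, where 0.572% did. One of the 4, *hub1*, the gene of a ubiquitin-like modifier (4175 and 5219), lay on the threshold. The 2 highest were *spf38*, which the gene table also lists as *cwf17*, a WD-repeat gene of the U5 snRNP (2694 and 3586, 0.41), and *sde2*, which encodes a ubiquitin-fold protein that joins the spliceosome (1326 and 1675, 0.34). The 2 lowest were *sap61*, a gene of the U2 protein SF3a (661.8 and 620.7, -0.09), and *sad1* (214.2 and 203.1, -0.08). In fission yeast *sad1* names a spindle pole body protein rather than a splicing factor, and without it the median of the list was 0.16.

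By position, the members are spread over the chromosomes, with 20 genes on chromosome 1, 36 on chromosome 2 and 15 on chromosome 3. That is 28.2%, 50.7% and 21.1% of the members, where 44.8%, 38.1% and 17.1% of all genes with a probe set lie. The subtelomeres bound by Sgo2 lie at the ends of chromosomes 1 and 2. In the gene order of the assembly ASM294v3, the member closest to such an end is *prp19*, with 168 protein-coding genes between it and the right end of chromosome 1. The closest on chromosome 2 is *cwf10*, with 185. On chromosome 3, *cwf18* has 13 genes between it and the right end of the sequence, and its log2 ratio was 0.21 (1269.7 and 1471), inside the range of genes of like signal. 2 pairs of members are direct neighbours among protein-coding genes. *cwf22* (963.4 and 1023, 0.09) lies next to *cwf24* (604.5 and 755.7, 0.32), and *prp11* (828.0 and 903.7, 0.13) next to *cwf23* (446.9 and 479.9, 0.10). The 73 measured protein-coding genes that flank members and are not members had a median log2 ratio of 0.12, beside 0.13 for the members.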

How the data were processed

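Poly(A) RNA (0.3 μg per strain) from 1 wt and 1 *sgo2*Δ culture was hybridized to GeneChip Yeast Genome 2.0 arrays. The deposited values are probe set signal intensities on a linear scale, which the authors scaled with GCOS 1.4 at default settings after masking *S. cerevisiae* probe sets. Of 10928 probe sets, 5748 are listed at 0 on both arrays, which the files do not mark as masked or not. The scaling target is not given in the sources used here, and the GCOS change calls were not used. Scaling did not bring the median log2 ratio of named genes to 0.

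Probe sets naming 1 gene were assigned through the platform annotation and the gene table of ASM294v3 (71 of 71 members by gene identifier). Where a gene had several probe sets their log2 signals were averaged, and wt was subtracted from *sgo2*Δ. Genes with a brighter signal of at least 100 were used, and a gene was called at 2-fold or, for small differences, at a log2 ratio of 0.32. Members, lists and tests were chosen with earlier results of these data known. Calling a gene outside the 5th to 95th percentile of the 200 genes of like signal was chosen after the values were seen, unlike centring on those genes, a listed alternative. Named were the highest and lowest log2 ratio of each role group, members under a signal of 100, the 5 highest and 5 lowest log2 ratios, the 3 brightest and 3 dimmest members, and the 2 highest and 2 lowest of the other splicing genes. Other members were named to account for their group. The call rules were tested on simulated data. No coordinates are printed because the files name no genome build. Alternatives were centring, quantile normalization, a pseudocount of 100, floors of 200, 500 or none, and the choice of probe sets. Calculations used pandas 2.3.3 and numpy 2.4.6 with scipy 1.17.1 under Python 3.11.15, and plots matplotlib 3.10.9.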

Additional observations from a re-analysis of the deposited data

How the results depend on the processing

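No paired analysis was possible because there is 1 array of wt and 1 of *sgo2*Δ, which also leaves no replicate to drop. No member changed 2-fold under any of the 9 alternatives or without *syf2*, a setting chosen after seeing the data, as was leaving *sad1* out of the other splicing genes. The median log2 ratio of members was -0.029 with quantile normalization, 0.0043 after centring on all genes and -0.0017 after centring on genes of like signal. That of the other splicing genes was -0.0055, 0.026 and 0.0054. By its construction centring removes the common shift of 0.13, and with quantile normalization the median of all genes was -0.020. Under these 3 settings, in this order, 1, 1 and 1 members were higher (1.11%, 1.82% and 1.79% of all genes) and 6, 1 and 3 lower (4.22%, 2.07% and 2.18% of all genes) at a log2 ratio of 0.32. With a pseudocount of 100, which pulls ratios of dim genes toward 0, 3 were higher, beside 3.47% of all genes. Single members moved by more than 1 spread of like-signal genes in 70, 54 and 54 of 71 cases under the same 3 settings and in 1 with the pseudocount. The choice of probe sets cannot move a member's log2 ratio, since each has 1 probe set, and the floors only drop genes. A floor of 200 left 69 members, without *syf2* and *prp18*. A floor of 500 left 63, with *bpb1* among those dropped, and log2 ratios from -0.19 to 0.40. Signal over background limits *syf2* and *prp18* most.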
